A study of Mus musculus with 6 samples.

Results

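Clone 9, a subclone of the mouse collecting duct line mpkCCD, was compared with the 4 other lines of the same study that are labelled as expressing aquaporin 2: clone 3, clone 10, clone 11 and the cells labelled as the original mpkCCD cells, which the sample title also calls a clone. Each line was measured on 1 Affymetrix array, so the comparison used 5 of the 6 arrays, 1 of clone 9 and 4 of the other lines. Clone 2, labelled as not expressing aquaporin 2, was left out of the comparison and is given only where its value is named. All of the lines had been kept for 5 days with 0.1 nM dDAVP, an analogue of vasopressin that acts on the V2 receptor, so no untreated cells enter any comparison here. Genes were kept where their mean signal over the 5 arrays was above the median of all probe sets that are not controls, 85.94 units. This left 22518 of 45037 probe sets and, with the brightest probe set standing for each gene, 10326 of the 18193 genes with a symbol. Values are given as MAS5 signals, which the array software scales to a common trimmed mean, and differences as clone 9 minus the mean of the 4 lines on the log2(signal + 19.13) scale. The offset is the 25th percentile of all values of the 5 arrays, and it shrinks differences that involve low signals.

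The mpkCCD line was derived from microdissected cortical collecting ducts of a mouse carrying a viral large T antigen, and it is used as a model of the principal cell. Principal cells reabsorb water through the channel aquaporin 2, which vasopressin moves to the apical membrane in vesicles through the V2 receptor and cyclic AMP, and whose gene vasopressin also induces over days. They reabsorb sodium through the epithelial sodium channel and the basolateral sodium pump. Immortalised lines can drift in gene expression and chromosome content during passage, and each subclone starts from a single cell.

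The labelled identity was checked first. Aqp2 gave a signal of 4683 in clone 9, against 1698 in clone 3, 1066 in clone 10, 6578 in clone 11 and 3822 in the original cells. Clone 9 thus lay inside the range of the 4 lines and far above clone 2, in which Aqp2 gave 159. The difference of clone 9 from the 4 lines was 0.84 (SE 0.775, limma adjusted p = 0.704) on the log2 scale. The epithelial markers Cdh1, Epcam, Krt8 and Krt18 summed to a signal of 76736 in clone 9 and to 77037 to 86738 in the other lines. The 10 defining principal cell markers were all above the cut-off, whereas no defining marker of fibroblasts, endothelium, leukocytes or the loop of Henle was. Of the intercalated cell markers, 1 of 6 was kept, the proton pump subunit Atp6v1b1 (564 in clone 9 and 413 to 687 in the 4 lines). Of the proximal tubule markers, 2 of 5 were kept, the endocytic receptor Lrp2 (943 against 809 to 1067) and Kap (108 against 80.7 to 141). For all 3 of these, clone 9 lay inside the range of the 4 lines. The fibroblast markers summed to 291 in clone 9 and to 131 to 232 in the 4 lines, all of them signals below the cut-off, and their part in any result below was not tested.

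By the limma fit across all 22518 probe sets, 129 probe sets (0.573%) passed an adjusted p of 0.05. Of these, 113 (0.502%) were lower and 16 (0.0711%) higher in clone 9, and all 129 lay outside the range of the 4 lines. At the level of genes, 63 (0.61%) were lower and 11 (0.107%) higher. Without the test, clone 9 was above all 4 lines for 25.4% of genes and below all 4 for 28.2%, so lying outside the range was common. A difference of at least 2-fold outside the range was found for 398 probe sets (1.77%) and 226 genes (2.19%) on the lower side, and for 168 probe sets (0.746%) and 86 genes (0.833%) on the higher side. This excess of lower values depended on the filter, without which 1220 probe sets were lower and 1291 higher. The filter uses the mean of 5 arrays, 4 of them of the other lines. A gene low only in clone 9 therefore passes the filter more readily than a gene high only in clone 9. The arrays were alike in brightness, with median signals of 84.3 to 88.6, and the 3′/5′ signal ratio of Actb, a measure of RNA integrity, was 1.58 in clone 9 and at most 1.76 elsewhere. Clone 9 correlated with each other line over all kept probe sets at r = 0.953 to 0.966, while the 4 lines correlated with each other at 0.969 to 0.981, as a description with genes as points. With 1 array of each line, clone 9 is assumed to vary as the 4 lines do, the p-values measure only the spread between these lines, and differences between lines, cultures and arrays cannot be told apart. An exact permutation test over the 5 arrays cannot give a p below 0.2.

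The most extreme genes were those whose signal was near the floor of the array in clone 9 and well measured in every other line. Fundc2, which encodes a protein of the outer mitochondrial membrane, gave 8.68 in clone 9, against 1930 in clone 3, 2558 in clone 10, 2605 in clone 11 and 1765 in the original cells. Lypd6b, a member of the LY6/PLAUR domain family of surface proteins, gave 4.94 in clone 9 and 1065, 1485, 1548 and 1089 in clones 3, 10 and 11 and the original cells. Poglut1, the enzyme that adds O-linked glucose to Notch receptors, gave 4.01 in clone 9 and 921, 1206, 864 and 901 in the same 4 lines. In all 3 genes the 4 lines lay close together and clone 9 stood alone, with clone 2 also high at 2472 for Fundc2, 686 for Lypd6b and 1700 for Poglut1. The difference was -6.31 for Fundc2 (SE 0.237, limma adjusted p = 2.88e-05), -5.75 for Lypd6b (SE 0.247, limma adjusted p = 3.02e-05) and -5.41 for Poglut1 (SE 0.224, limma adjusted p = 3.02e-05). In bulk RNA, fewer cells that express a gene and less RNA per cell cannot be told apart.

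The next genes in size of difference were Gas1, Sgpp2, St6gal1 and, further down the 12, Cds1. Gas1, a lipid-anchored co-receptor for hedgehog ligands, gave 7.41 in clone 9, 1714 in clone 3, 1459 in clone 10, 780 in clone 11 and 472 in the original cells. The 4 lines differed among themselves here, but the lowest of them was still far above clone 9, and the difference was -5.24 (SE 0.576, limma adjusted p = 0.00688). Sgpp2, a phosphatase of sphingosine 1-phosphate, gave 86.8 in clone 9 and 3461, 4231, 1916 and 2126 in clones 3, 10 and 11 and the original cells, with a difference of -4.72 (limma adjusted p = 0.00137). Cds1, which makes CDP-diacylglycerol for phosphoinositide synthesis, gave 3.31 in clone 9 against 256 to 438, a difference of -3.98 (limma adjusted p = 0.00137). St6gal1, which adds sialic acid to glycoproteins, gave 10.9 against 352 to 990, a difference of -4.29 (limma adjusted p = 0.00482). None of these 4 genes had clone 9 within the range of the other lines. With clone 2 added to the other lines, Gas1, Sgpp2 and St6gal1 no longer passed, nor did P4ha2, and clone 2 itself gave only 46.3 for Gas1.

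The rest of the 12 leading lower genes covered a transcription factor, a collagen-modifying enzyme, a growth factor and a junction protein. Zbtb10, a zinc finger transcription factor, gave 1.62 in clone 9 and 248 to 432 in the other lines, a difference of -3.98 (limma adjusted p = 0.0016). P4ha2, a prolyl hydroxylase of collagen, gave 28.5 against 607 to 891, a difference of -3.97 (limma adjusted p = 0.000231). Pdgfc, a ligand of the PDGF receptors, gave 6.996 against 217 to 513, a difference of -3.88 (limma adjusted p = 0.00482). Cldn8, the tight junction claudin of the collecting duct, differed in kind, since it stayed well measured: clone 9 gave 615, clone 3 9127, clone 10 9066, clone 11 8299 and the original cells 6128. Every one of the 4 lines was thus far above clone 9, their mean being 13.3 times that of clone 9, and the difference was -3.67 (SE 0.209, limma adjusted p = 0.000231). Ckap4, a membrane protein of the endoplasmic reticulum, gave 91.6 in clone 9, 545 in clone 11 and 1223 to 1394 in the other 3 lines, a difference of -3.29 (limma adjusted p = 0.018). Without the original cells, or without the filter on low signals, Ckap4 no longer passed.

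**Figure D1:**
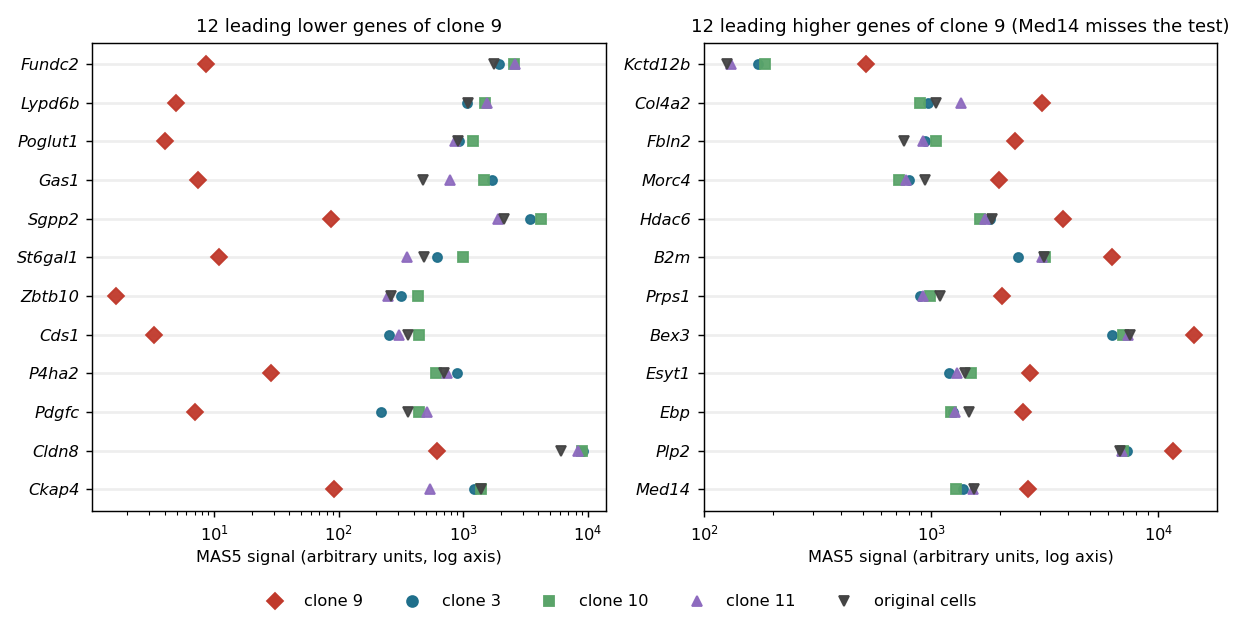
The MAS5 signal of the 12 leading lower and 12 leading higher genes is plotted on a log axis, 1 point for each line, with clone 9 marked apart from the 4 other AQP2-expressing lines. Clone 9 lies below all 4 lines for each lower gene, for example at 8.68 against 1765 to 2605 for Fundc2, and above all 4 for each higher gene, of which Med14 (adjusted p = 0.0509) did not pass the test.

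A search over all kept genes, made after these values were seen, asked how often a line was below the 25th percentile of its own array while each of the other 4 lines was above its own median. Clone 9 had 16 such genes, clone 11 had 6, clone 3 had 4, and clone 10 and the original cells had 0. The genes of clone 9 include 11 of the 63 that passed the test. The other 5 did not pass: Dpp4, a membrane peptidase (2.11 in clone 9 against 101 to 550, limma adjusted p = 0.0605), Mapre2, a microtubule end-binding protein (9.91 against 108 to 250, limma adjusted p = 0.0503), Tmprss4, Ramp2 and Fbxl18. Clone 2, which the search left out, gave 12.4 for Mapre2 and 173 for Dpp4. A lone probe set can fail on 1 array, so other probe sets of the same genes were read where any were kept. Among the 12 leading lower genes, Lypd6b, Poglut1, Sgpp2, St6gal1, P4ha2 and Cldn8 had no other kept probe set. Their values could not be checked in this way. For Zbtb10 and Cds1 the other kept probe set was lower in clone 9 but did not pass. Of the 63 lower genes, 34 had another kept probe set, and in 33 of them all these probe sets were lower in clone 9 as well. The exception was Rbmx, an RNA-binding protein gene on the X chromosome, whose probe sets disagreed in sign, and for which the representative probe set gave 193 in clone 9 and 539 to 760 in the other lines. Of the 11 higher genes, 3 had another kept probe set, and all of these were higher in clone 9.

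The 12 leading lower genes had 24 nearest kept neighbours in the RefSeq gene order, none of which passed the test. The median difference of these neighbours was -0.01, with a range of -2.01 to 0.82, and 5 were below and 5 above all 4 lines. The neighbours of the other lower genes were not read in this way. Over all 74 genes that passed, 3 pairs were next to each other among kept genes, Adh6b with Adh5, Tmem176b with Tmem176a, and Mt2 with Mt1, all of them lower in clone 9. The share of genes below all 4 lines was 28.2% over all kept genes.

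The metallothioneins Mt1 and Mt2, which bind zinc, copper and cadmium and are induced by metals through the factor MTF1, formed 1 of these pairs. Mt1 gave 7031 in clone 9, 15649 in clone 3, 14743 in clone 10, 17006 in clone 11 and 13955 in the original cells, and Mt2 gave 2495, 8060, 8256, 9918 and 7352 in the same order. For both genes clone 9 lay below every other line by more than the whole spread of the 4 lines. The mean of the 4 lines was 2.18 times that of clone 9 for Mt1, a difference of -1.12 (SE 0.125, limma adjusted p = 0.00731), and 3.37 times for Mt2, a difference of -1.73 (SE 0.159, limma adjusted p = 0.00275). Clone 2 lay between, at 9488 for Mt1 and 4856 for Mt2. Both lie on chromosome 8, most genes of which lay the other way, as described below. The 250 bases before the annotated start of each gene are printed here because both genes were lower together and their promoters hold the elements by which metals act. Sequences are RefSeq's on GRCm38.p6, plus strand, Mt1 at chr8:94178839-94179088 and Mt2 at chr8:94172368-94172617. Capitals mark matches on either strand to the core of the metal response element, searched as TGCACNC and TGCGCNC, with no other motif searched:
Mt1: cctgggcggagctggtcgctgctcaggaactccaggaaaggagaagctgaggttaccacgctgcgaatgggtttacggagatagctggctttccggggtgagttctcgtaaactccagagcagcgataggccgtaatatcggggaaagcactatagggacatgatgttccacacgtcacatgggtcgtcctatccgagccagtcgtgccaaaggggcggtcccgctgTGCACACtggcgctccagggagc
Mt2: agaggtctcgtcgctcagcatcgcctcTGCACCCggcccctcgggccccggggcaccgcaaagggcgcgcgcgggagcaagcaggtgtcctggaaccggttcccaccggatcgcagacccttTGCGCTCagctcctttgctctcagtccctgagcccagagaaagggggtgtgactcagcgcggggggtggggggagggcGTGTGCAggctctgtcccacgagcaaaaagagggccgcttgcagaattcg
The window of Mt1 holds 1 match and that of Mt2 holds 3. These counts cover only the printed windows and are not a count of the elements of either promoter as a whole. Among 32851 promoter windows of this length, 21.4% hold at least 1 match and 1.26% hold at least 3, and a match is a description of the letters and not a bound site.

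Further lower genes that passed the test were chosen after their values were seen, and no count over membrane or adhesion proteins stands behind them. Alcam, an adhesion molecule of the immunoglobulin family, gave 338 in clone 9, 3030 in clone 3, 4225 in clone 10, 3654 in clone 11 and 2659 in the original cells. All 4 lines were far above clone 9, the difference was -3.24 (SE 0.23, limma adjusted p = 0.000715), and the 4 other probe sets of Alcam passed too. Tmem176b and its neighbour Tmem176a, a pair of related membrane proteins, differed by -2.38 (limma adjusted p = 0.00448) and -2.02 (limma adjusted p = 0.0196), the second not passing without clone 10. Sorl1, a sorting receptor between the Golgi and endosomes, gave 1069 in clone 9 against 3721 to 4617, a difference of -1.88 (SE 0.151, limma adjusted p = 0.00137). Fras1, an extracellular matrix protein of the kidney's epithelial basement membrane, differed by -2.08 (limma adjusted p = 0.0373) and Flrt1, an adhesion protein, by -2.05 (limma adjusted p = 0.00731). Fras1 did not pass without clone 10 or without the original cells. Tnfrsf21, a death receptor, gave 30.0 in clone 9 and 196 to 515 in the 4 lines, a difference of -2.78 (limma adjusted p = 0.035) that was lost without clone 3 or without the original cells. Clone 2 was below all 4 lines too for Alcam (1985), Sorl1 (2756), Fras1 (462) and Flrt1 (405). It was above all 4 for Tmem176b (2941), Tmem176a (1176) and Tnfrsf21 (624).

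Slit2, Fzd1 and Fgf9, which encode signalling ligands or receptors, passed the test as lower, as did Pdgfc, Gas1 and Tnfrsf21, given above. Slit2, Fzd1 and Fgf9 are given singly here, Slit2 and Fgf9 having been chosen after their values were seen. Slit2, a ligand of Robo receptors, gave 471 in clone 9 and 1368, 1516, 1401 and 1202 in clones 3, 10 and 11 and the original cells, a difference of -1.50 (SE 0.168, limma adjusted p = 0.0074). Fzd1, a Wnt receptor, gave 286 against 784 to 1143, a difference of -1.66 (limma adjusted p = 0.0162). Fgf9, a fibroblast growth factor, gave 93.8 against 323 to 527, a difference of -1.87 (limma adjusted p = 0.025) that did not pass without clone 10 or without the original cells. Each of these 3 genes had clone 9 below all other lines. The Wnt pathway list, which holds Fzd1, had 1 of 20 kept genes lower by the test and none higher, beside 0.61% and 0.107% of all genes. It had 8 genes below and 4 above all 4 lines, beside 28.2% and 25.4%. Its median was -0.08, which turned to 0.00 when the probe sets of a gene were averaged.

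Among transcription factors, Sox11, a developmental SOX factor, gave 119 in clone 9, 1567 in clone 3, 1831 in clone 10, 933 in clone 11 and 901 in the original cells. Clone 9 lay far below all 4, with a difference of -3.20 (SE 0.369, limma adjusted p = 0.00858), and the 5 other probe sets of Sox11 passed too. Plagl1, an imprinted zinc finger factor, gave 1218 in clone 9 against 10861, 12654, 12058 and 7537, a difference of -3.10 (SE 0.245, limma adjusted p = 0.00137), while clone 2 gave 949. Clones 9 and 2 were thus both low for this gene, each by its own value against the same 4 lines. Fos, an immediate early factor, gave 631 against 1585 to 2704, a difference of -1.69 (limma adjusted p = 0.0258) that did not pass without clone 3 or without the original cells. Tle3, a co-repressor of Wnt and Notch target genes, differed by -1.21 (limma adjusted p = 0.0482), and was also lost without clone 3 or without the original cells.

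In the list of hypoxia and glycolysis genes, 3 of 27 kept members fell and none rose, beside 0.61% and 0.107% of all genes. Beside P4ha2, these were Eno2, an enolase, with 88.3 in clone 9 and 399 to 463 in the other lines (difference -2.04, limma adjusted p = 0.00448), and Egln3, a prolyl hydroxylase that acts on the HIF factors, with 1018 against 2183 to 2847 (difference -1.25, limma adjusted p = 0.0184). Clone 2 gave 6615 for Egln3 and 2867 for P4ha2, on the other side of the 4 lines. The list as a group showed no shift, with 8 members above and 9 below all 4 lines, beside 25.4% and 28.2% of all genes, and a median of -0.02. The HIF subunit gene Epas1, which gave 65.2 in clone 9, 122 to 333 in the 4 lines and 694 in clone 2, did not pass (difference -1.62, limma adjusted p = 0.217).

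The 11 genes that were higher in clone 9 had smaller differences than the leading lower genes, and 7 of them lie on the X chromosome. That chromosome holds 296 of the 10326 kept genes. Col4a2, a chain of the collagen IV of basement membranes, gave 3073 in clone 9, 970 in clone 3, 890 in clone 10, 1355 in clone 11 and 1053 in the original cells. Clone 9 was above every line, at 2.88 times their mean, with a difference of 1.53 (SE 0.218, limma adjusted p = 0.0218) that did not pass without the original cells. Col4a1, which is transcribed from the same promoter region in the opposite direction, gave 6667 in clone 9 and 1564, 2195, 2893 and 2714 in the other lines, with a difference of 1.54 (SE 0.287, limma adjusted p = 0.0686). The difference was thus of like size, but the spread of the 4 lines was wider and Col4a1 did not pass. The other measured collagen IV chains did not pass either: Col4a3 differed by 0.70 (limma adjusted p = 0.296), Col4a4 by 0.75 (limma adjusted p = 0.254), Col4a5 by 0.09 (limma adjusted p = 0.848) and Col4a6 by -2.30 (limma adjusted p = 0.405). Fbln2, a fibulin of the extracellular matrix, gave 2345 in clone 9 and 760 to 1053 in the 4 lines, a difference of 1.34 (SE 0.19, limma adjusted p = 0.0214). Clone 2 was high too for Fbln2, at 2067, but gave 1071 for Col4a2, inside the range of the 4 lines.

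B2m, the light chain of MHC class I molecules, gave 6248 in clone 9, 2399 in clone 3, 3184 in clone 10, 3075 in clone 11 and 3132 in the original cells. Clone 9 was above all 4 lines, at 2.12 times their mean, with a difference of 1.09 (SE 0.172, limma adjusted p = 0.0355), and clone 2 was high too, at 6792. The call was lost without clone 10 or without the original cells. B2m was the only member of 13 kept class I genes to pass, 5 members being above and 1 below all 4 lines, with a median of 0.09. The shares over all kept genes were 25.4% above and 28.2% below. Of these 13 class I genes, 8 lie on chromosomes 8, 9, 17 or 18, whose shifts are given below. Esyt1, a tether between the endoplasmic reticulum and the plasma membrane, gave 2734 against 1202 to 1495, a difference of 1.01 (limma adjusted p = 0.0361) that was lost without clone 3, without clone 10 or without the original cells.

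The X-linked genes lay 1.66 to 3.38 times above the mean of the 4 lines. Hdac6, a cytoplasmic deacetylase of tubulin, gave 3799 in clone 9, 1816 in clone 3, 1647 in clone 10, 1729 in clone 11 and 1850 in the original cells. The 4 lines lay close together and clone 9 was at 2.16 times their mean (difference 1.103, SE 0.136, limma adjusted p = 0.0117). Bex3, an adaptor protein of neurotrophin receptor signalling, gave 14385 against 6262, 7023, 7322 and 7502 in the same 4 lines (difference 1.03, SE 0.127, limma adjusted p = 0.0117). Prps1, which makes phosphoribosyl pyrophosphate for nucleotide synthesis, differed by 1.08 (limma adjusted p = 0.031). Morc4, a MORC-family protein, differed by 1.29 (limma adjusted p = 0.0202). Ebp, a sterol isomerase of cholesterol synthesis, differed by 0.95 (limma adjusted p = 0.0398), Plp2 by 0.73 (limma adjusted p = 0.0246) and Kctd12b by 1.66 (limma adjusted p = 0.04998). In each of these, clone 9 was above all 4 lines, as it was for Med14, a Mediator subunit on the X chromosome that missed the threshold (difference 0.89, limma adjusted p = 0.0509). Prps1, Ebp, Plp2 and Kctd12b did not pass without clone 3 or without clone 10, and Plp2 and Kctd12b not without the original cells. Clone 2 was above all 4 lines too for Hdac6 (3429), Bex3 (9178), Prps1 (1158), Morc4 (1467), Ebp (2616) and Plp2 (8551). For Kctd12b clone 2 gave 21.9, below all 4 lines. Ebp was the only 1 of 28 kept cholesterol and fatty acid synthesis genes to pass, so its position on the X chromosome is given beside it. Of the 28, 4 were above and 8 below all 4 lines, beside 25.4% and 28.2% of all genes.

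Several of the largest positive differences did not pass, because the 4 lines differed among themselves. Fam111a, a protease that acts at replication forks, gave 1477 in clone 9 but 6.07 in clone 3, 26.9 in clone 10, 35.3 in clone 11 and 355 in the original cells (difference 4.42, SE 1.15, limma adjusted p = 0.182). Asb4, an imprinted gene of a cluster on chromosome 6, gave 1616 in clone 9, 3.50 in clone 3 and 245 to 373 in the other 3 lines (difference 3.26, limma adjusted p = 0.351). Sgce, an imprinted sarcoglycan gene of the same cluster, gave 948 in clone 9, 406 in clone 3, 6.18 in clone 10, 35.2 in clone 11 and 422 in the original cells (difference 2.93, limma adjusted p = 0.428). Clone 9 was above all 4 lines for each of these. The imprinted genes as a list had 6 of 14 kept members above and 2 below all 4 lines, with a median of 0.15. Over all kept genes 25.4% were above and 28.2% below. The called member of this list went the other way: Plagl1, given above, differed by -3.10 (limma adjusted p = 0.00137). The median of the list turned to -0.04 without the filter and to -0.14 with the filter at the 75th percentile. Ppp2r2c, a regulatory subunit of protein phosphatase 2A, gave 1147 against 26.1 to 178 (difference 3.28, limma adjusted p = 0.102). Cdh2, N-cadherin, gave 1623 against 81.4 to 592 (difference 2.42, limma adjusted p = 0.253).

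Within the principal cell list, 3 of 20 kept genes fell and none rose, beside 0.61% and 0.107% of all genes. Below all 4 lines were 8 and above 6, near the 28.2% and 25.4% of all genes, and the median was -0.08, which turned to 0.03 with clone 2 added to the other lines. Beside Cldn8 and St6gal1, the third was Fxyd2, the gamma subunit of the sodium pump, with 197 in clone 9, 1865 in clone 3, 2194 in clone 10, 1910 in clone 11 and 1110 in the original cells. Clone 9 was below all 4 lines, whose mean was 8.99 times that of clone 9, with a difference of -3.01 (SE 0.314, limma adjusted p = 0.00482). The beta and gamma subunits of the epithelial sodium channel did not pass: Scnn1g gave 183 in clone 9 and 872, 988, 830 and 378 in clones 3, 10 and 11 and the original cells (difference -1.88, limma adjusted p = 0.133), and Scnn1b gave 96.6 against 350, 507, 112 and 184 (difference -1.21, limma adjusted p = 0.466). Clone 9 was the lowest line for both, by little in the case of Scnn1b. Fxyd4, another pump regulator, gave 2304 against 3246 to 4214 (difference -0.70, limma adjusted p = 0.116). Rhcg, an ammonia transporter, gave 8.42 against 25.9 in clone 3, 202 in clone 10, 1526 in clone 11 and 271 in the original cells (difference -3.23, limma adjusted p = 0.382). On the other side, Hsd11b2, which inactivates corticosterone in aldosterone target cells, gave 6671 against 3316 to 5802 (difference 0.72, limma adjusted p = 0.304), and Gata2, a transcription factor of the collecting duct, gave 833 against 210 to 486 (difference 1.15, limma adjusted p = 0.265). Avpr2, the V2 receptor, gave 1556 in clone 9, inside the range of 1417 to 1746 (difference -0.06, limma adjusted p = 0.913). Gata3, another collecting duct factor, differed by 0.08, and Npnt, a matrix protein, by -0.18 (limma adjusted p = 0.553).

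HOX genes, the homeobox factors that give cells their position along the body axis, gave a shift of many small differences. Of 26 HOX genes measured, 16 were kept, and clone 9 was below all 4 lines for 12 of them (75%) and above all 4 for 1, beside 28.2% and 25.4% over all genes. No HOX gene passed the test, beside 0.717% of all genes in either direction. Hoxa5 gave 556 in clone 9, 936 in clone 3, 963 in clone 10, 939 in clone 11 and 970 in the original cells. The 4 lines lay close together and clone 9 was lower, with a difference of -0.76 (limma adjusted p = 0.0842). Hoxa10 gave 408 against 710, 643, 820 and 765 in the same lines (difference -0.81, limma adjusted p = 0.125). By cluster, 4 of 6 kept Hoxa genes, 5 of 6 Hoxb genes and 3 of 4 Hoxd genes were below all 4 lines, with median differences of -0.45, -0.36 and -0.35, so the lower values were spread over 3 chromosomes. Hoxd8 and Hoxd9, which gave 3720 and 2998 in clone 9, differed by -0.29 and -0.35. The median of the list was -0.36, and it lay between -0.43 and -0.29 under every alternative setting, while the median over all kept genes was -0.01. None of the kept HOX genes lies on chromosome 8, 9, 17 or 18, but position moves with the lower values. In the runs of 20 kept genes that hold the Hoxd genes, on chromosome 2, the 35 other genes had a median of -0.25, with 27 (77.1%) below all 4 lines. The 12 other genes beside the Hoxb cluster on chromosome 11 had a median of -0.20, with 6 below, and the 14 beside the Hoxa cluster on chromosome 6 a median of -0.11, with 5 below. The part of these surroundings in the HOX values was not tested.

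**Figure D2:**
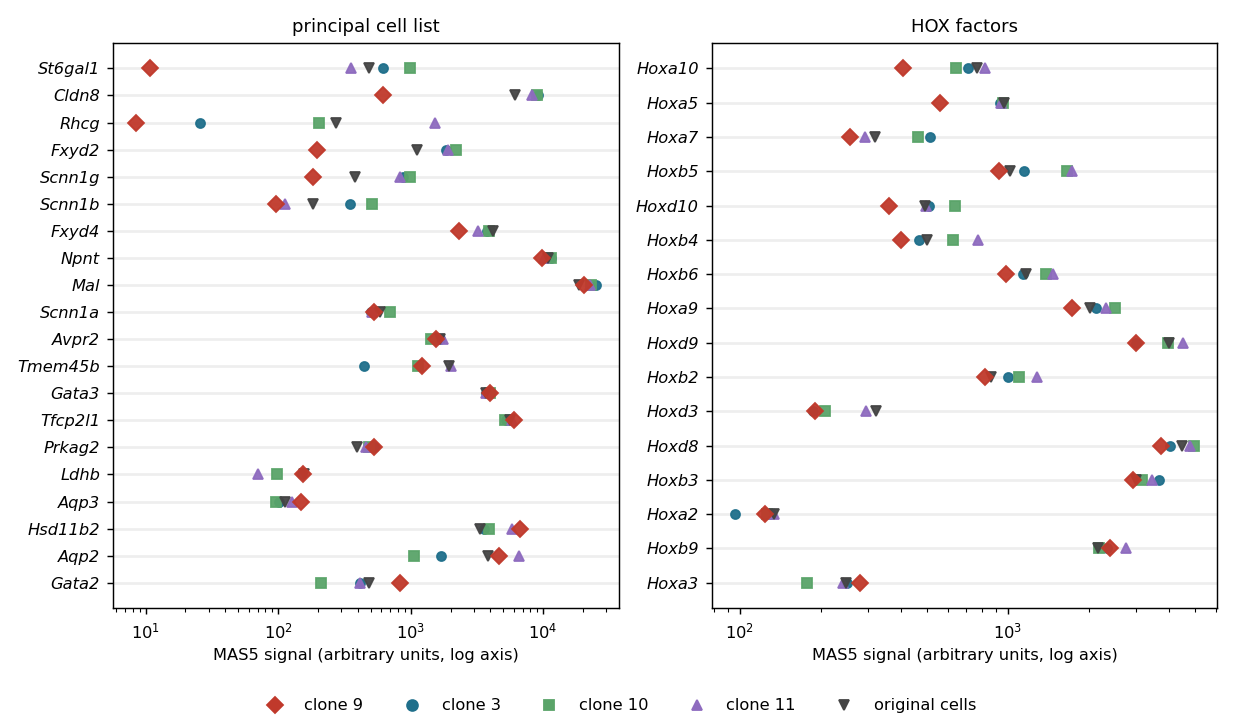
The MAS5 signal of each kept gene of the principal cell list (left) and of the HOX factors (right) is plotted on a log axis, 1 point for each line, with genes ordered by the difference of clone 9 from the 4 other AQP2-expressing lines. Clone 9 lies far to the left for St6gal1 and Cldn8, inside the range for Aqp2, and at or just beyond the low end for most HOX genes, 12 of 16 being below all 4 lines.

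**Figure D3:**
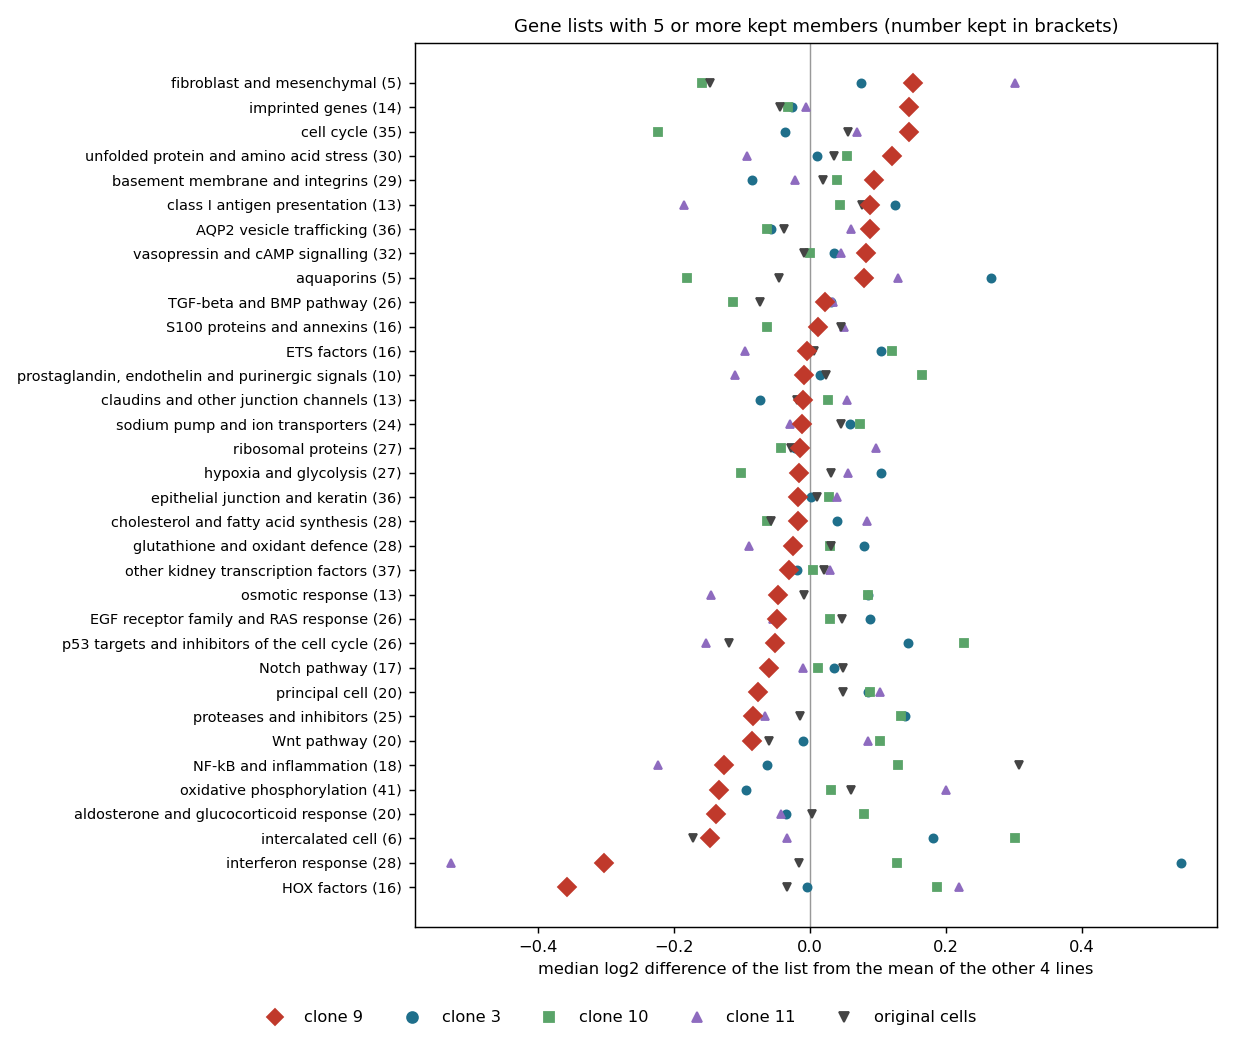
The median log2 difference over the kept members is plotted for each of the 34 lists with at least 5 kept members, for clone 9 against the 4 lines and for each other line against the mean of the remaining 4 lines, clone 9 included. The HOX factors have the lowest median of clone 9, at -0.36, outside the range of the other lines.

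Of 38 gene lists read in this way, 37 had a kept member and 27 had no member that passed the test. Among the 34 lists with at least 5 kept members, the median of clone 9 lay above that of all 4 other lines in 6 and below in 9, where each other line was set against the mean of the remaining 4 lines, clone 9 included. The genes of aquaporin 2 vesicle trafficking, among them motor, SNARE and actin genes, had 15 of 36 kept members above and 2 below all 4 lines, with a median of 0.09 and no member passing the test. Rhoa, a GTPase that keeps cortical actin polymerised, gave 8537 in clone 9 and 5651 to 7240 in the other lines (difference 0.44, limma adjusted p = 0.282), and it lies on chromosome 9. Over all kept genes, clone 9 was above all 4 lines in 25.4% and below in 28.2%. Position moves with the trafficking count: 17 of the 36 genes lie on chromosomes 8, 9, 17 or 18, and 11 of the 15 genes above all 4 lines are among these. The 19 genes elsewhere had 4 above and 1 below all 4 lines and a median of -0.01. Of all kept genes off those chromosomes, 19.7% were above and 32.7% below. Vasopressin and cyclic AMP signalling genes had 14 of 32 kept members above and 7 below, with a median of 0.08 and no member passing. The 8 of them on those chromosomes had 5 above, beside 50.5% of all kept genes there. The other 24 had 9 above and 6 below, with a median of 0.00. Gnas, the stimulatory G protein subunit on chromosome 2, gave 17232 against 13750 to 15106 (difference 0.23, limma adjusted p = 0.4).

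Cell cycle genes had 18 of 35 kept members above and 3 below all 4 lines, a median of 0.15 and no member passing the test. Birc5, survivin, gave 5332 in clone 9 and 2782 to 4592 in the other lines (difference 0.57, limma adjusted p = 0.402), and Pcna, the sliding clamp of replication, gave 26547 against 20417 to 24258 (difference 0.23, limma adjusted p = 0.445). The counts of this paragraph stand beside 25.4% of all kept genes above and 28.2% below all 4 lines. For all kept genes off chromosomes 8, 9, 17 and 18 these shares were 19.7% and 32.7%. The 5 cell cycle genes on chromosomes 8, 9, 17 and 18 were all above the 4 lines, and of the 30 elsewhere 13 were, with a median of 0.07. Oxidative phosphorylation genes went the other way, with 20 of 41 kept members below and 3 above all 4 lines, a median of -0.13 and no member passing. The 33 of them that lie on other chromosomes had 20 below and 0 above, with a median of -0.20. Interferon response genes had a median of -0.30, but clone 3 at 0.55 and clone 11 at -0.53 spanned a wider range, and the median of clone 9 moved between -0.82 and -0.18 with the setting. Their share below all 4 lines was 35.7%, near that of all genes, and their share above was 7.14%. Of 28 kept interferon genes, 10 were below and 2 above all 4 lines and none passed. An example is Ifit3 with 156 in clone 9, 309 to 554 in the 4 lines and 1459 in clone 2 (difference -1.33, limma adjusted p = 0.121). The list of unfolded protein and amino acid stress had 13 of 30 above and 5 below, with a median of 0.12, and the basement membrane and integrin list, with Col4a2 as its only member to pass, had 11 above and 11 below of 29, with a median of 0.09.

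Gene differences also followed chromosome position. The 1916 kept genes on chromosomes 8, 9, 17 and 18, 18.6% of the total, were above all 4 lines in 50.5% and below in 8.61%, with a median difference of 0.21. For the 8410 genes elsewhere these shares were 19.7% and 32.7%, with a median of -0.05. These chromosomes were picked for their medians, so the split is a description. Among single genes on them, Col4a2 on chromosome 8 was the only higher gene by the test. Lower by the test were Mt1, Mt2 and Palld on chromosome 8, Fxyd2, Sorl1 and Tle3 on chromosome 9 and Tnfrsf21 on chromosome 17. Over all kept genes, 0.107% were higher and 0.61% lower by the test. Palld, an actin-binding protein gene, did not pass without clone 3 or without clone 10. DNA was not measured, so copy number and expression cannot be told apart here.

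Chromosome 18 had the largest median of any chromosome in clone 9. Its 253 kept genes had a median difference of 0.37, a ratio of 1.29, and 192 of them (75.9%) were above all 4 lines, beside 25.4% over all genes. Set against each line singly, the median was between 0.30 and 0.42. In consecutive runs of 20 genes along the chromosome, all 12 runs had a median of clone 9 above that of all 4 other lines, from 0.22 to 0.45, so the shift spanned the chromosome. Smad4, the common mediator of TGF-beta and BMP signalling on chromosome 18, gave 7866 in clone 9, 4922 in clone 3, 4773 in clone 10, 5017 in clone 11 and 5319 in the original cells (difference 0.65, limma adjusted p = 0.0599). Clone 9 was above all 4 lines, but Smad4 did not pass. Mapre2, on the same chromosome, was among the low genes described above.

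Chromosome 8 had a median of 0.22 over 573 genes, with 317 (55.3%) above all 4 lines, beside 25.4% over all genes. All 28 runs along it were above the other lines, with medians from 0.11 to 0.36, and against each line singly the chromosome's median was 0.15 to 0.26. On chromosomes 9 and 17 clone 9 was not alone. Chromosome 9 had a median of 0.21 over 577 genes, of which 259 (44.9%) were above all 4 lines, but clone 11 was raised as well, by 0.19, while clones 3 and 10 were at -0.21 and -0.22. The median of clone 9 minus clone 11 on chromosome 9 was 0.03. Chromosome 17 had a median of 0.14 over 513 genes, with clone 11 also at 0.14 and a median of 0.00 for clone 9 minus clone 11. The runs show a division within chromosome 9, with the boundary set after they were seen. Over the first 360 genes clone 11 was at 0.27 and clone 9 at 0.20, with a median of -0.05 for clone 9 minus clone 11. Over the last 217 genes, from Cep162 to Ppp2r3d, clone 9 was at 0.23, with 126 genes (58.1%) above all 4 lines, and clone 11 at 0.06, and clone 9 minus clone 11 was 0.16. In each of the 10 runs of that end the median of clone 9 was above those of all 4 lines. No gene there passed the test. The brightest differed by 0.14 (Rpsa, a ribosomal protein), 0.01 (Ctnnb1, beta-catenin) and 0.23 (Stt3b, an oligosaccharyltransferase subunit).

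**Figure D4:**
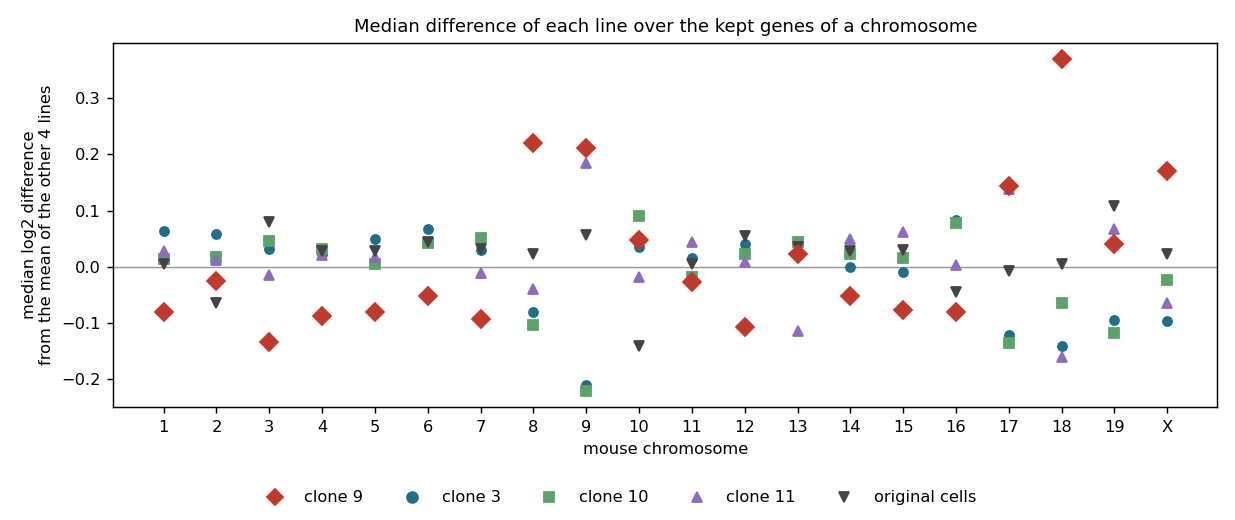
The median log2 difference over the kept genes of each chromosome is plotted for clone 9 against the 4 other AQP2-expressing lines and for each other line against the mean of the remaining 4, clone 9 included. Chromosome 18 at 0.37, chromosome 8 at 0.22 and the X chromosome at 0.17 stand above the other lines, clone 11 lies close to clone 9 on chromosomes 9 and 17, and chromosome 3 lies lowest at -0.13.

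The X chromosome, with a median of 0.17 over 296 genes, was raised at its ends and not in its middle. The boundaries were set after the runs were seen, so the values are a description. Over all kept genes, 25.4% were above and 28.2% below all 4 lines. The first 40 kept genes, from Vamp7 to Maoa, had a median of 0.60, a ratio of 1.51, with 33 above and 3 below all 4 lines, and they hold Hdac6, Ebp and Plp2. The next 160 genes, from Fundc1 to Hmgn5, had a median of -0.03, with 30 above and 55 below, and they hold Fundc2 and Rbmx. The last 96 genes, from Sh3bgrl to Erdr1, had a median of 0.64, a ratio of 1.56, with 76 above and 5 below, and they hold Kctd12b, Morc4, Prps1 and Bex3. Against each line singly the medians were 0.47 to 0.66 in the first stretch and 0.51 to 0.69 in the last. Clone 2, set against the same 4 lines, had medians of 0.53, 0.50 and 0.47 in the 3 stretches, so in clone 2 the middle was raised as well. Xist, the RNA that coats an inactive X chromosome, gave 88.9 in clone 9, 55.2 in clone 2, 59.7 in clone 3, 52.4 in clone 10, 75.7 in clone 11 and 6936 in the original cells. At this probe set Xist in clone 9 was somewhat above the other subclones and far below the original cells. Another Xist probe set gave 22.7 in clone 9, 33.3 in clone 11 and 2798 in the original cells. A further one gave 2.47, 30.3 and 134 in the same order. The place of clone 9 among the subclones thus differed between probe sets, while the original cells were highest at each.

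Chromosomes 2, 11 and 3 also changed sign or size along their length, with boundaries again set after the runs were seen. On chromosome 2, the first 40 genes had a median of 0.28, with 27 above and 1 below all 4 lines. The following 360 genes, up to Lin7c, had a median of -0.15, with 163 (45.3%) below and 36 (10%) above. The next 100 genes, from Lgr4 to Stard7, had a median of 0.26, with 57 above and 2 below, and they include B2m. The last 315 genes of the chromosome had a median of 0.02. Clone 2, set against the same 4 lines, had medians of -0.31, -0.29, -0.18 and 0.08 in these stretches, in order. On chromosome 11, the first 640 genes had a median of -0.09, with 257 (40.2%) below all 4 lines and 8 lower by the test. The last 254 genes, from Dnajc7 to Metrnl, had a median of 0.19, with 126 above and 25 below. Clone 2 had medians of 0.10 and 0.13 over the same genes. Among the called genes of the first stretch of chromosome 11 were P4ha2, the actin regulator Cyfip2 (difference -2.45, limma adjusted p = 0.0221) and Rap1gap2, which switches off the Rap1 GTPase (difference -1.90, limma adjusted p = 0.0218). Cyfip2 and Rap1gap2 did not pass without clone 10, and Rap1gap2 not without the original cells. Clone 2 was low too for Cyfip2, at 57.6, but gave 732 for Rap1gap2 and 2867 for P4ha2.

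Chromosome 3 had the lowest median of clone 9, at -0.13 over 510 genes, with 222 (43.5%) below all 4 lines. Over all kept genes, 28.2% were below and 25.4% above all 4 lines. The difference was larger at the end of the chromosome: the first 440 genes had a median of -0.10, and the last 70, from Tbck to Wls, had a median of -0.44, a ratio of 0.735. Clone 2, set against the same 4 lines, was low too, at -0.22 over the first 440 genes and -0.31 over the last 70. In clone 9, 58 of these last 70 genes (82.9%) were below and 1 above all 4 lines. They include the neighbours Adh5, the glutathione-dependent formaldehyde dehydrogenase, and Adh6b, an alcohol dehydrogenase. Adh5 gave 3725 in clone 9, 6185 in clone 3, 5973 in clone 10, 6088 in clone 11 and 6402 in the original cells. The 4 lines were nearly level and clone 9 was lower, with a difference of -0.72 (SE 0.112, limma adjusted p = 0.0327). Adh6b gave 10.4 against 132, 127, 121 and 212 (difference -2.47, limma adjusted p = 0.0327), and neither gene passed without clone 3, without clone 10 or without the original cells. Over the genome, 503 runs were read, and the median of clone 9 was above that of all 4 other lines in 115 and below in 221. Each other line was set against a mean that includes clone 9. No such count was made for the other lines, so these counts are a description without a background.

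**Figure D5:**
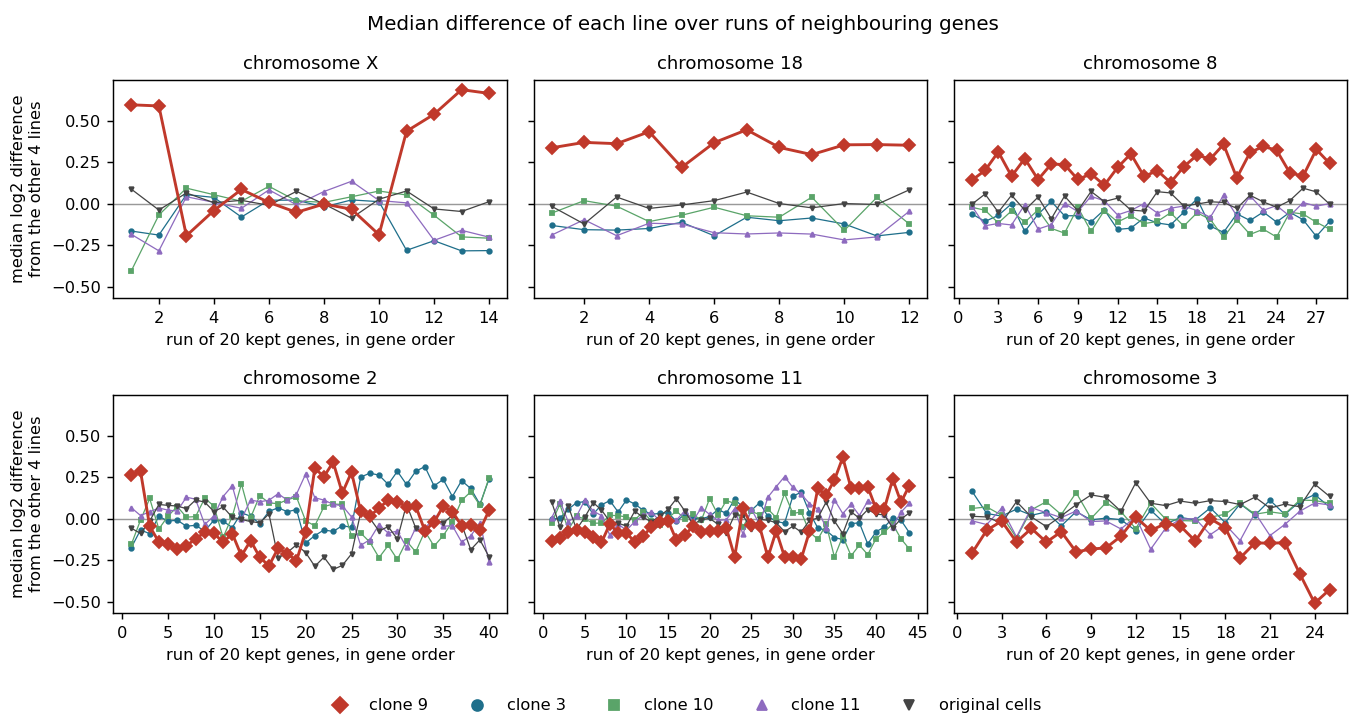
The median log2 difference of consecutive runs of 20 kept genes is plotted in gene order along chromosomes X, 18, 8, 2, 11 and 3, for clone 9 against the 4 other AQP2-expressing lines and for each of these against the mean of the remaining 4 lines, clone 9 included. Chromosomes 18 and 8 lie above 0 in clone 9 over their whole length, the X chromosome is raised in its first 40 and last 96 genes, and the end of chromosome 3 is low.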

How the data were processed

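Total RNA of each line was hybridised to 1 array per line. The deposited values are MAS5 signal intensities, which, per the submitters' processing notes, came from version 1.1 of Affymetrix Expression Console. No detection calls were used here. Low MAS5 signals are noisy and no limit of detection was set, so ratios to them are not given. Probe sets were named through the platform annotation, updated with RefSeq's GRCm38.p6 gene table: 34945 of 45101 probe sets had 1 gene, 932 several and 9160 none, and 64 are controls. The members and gene lists were chosen with earlier results of these data known. Differences were tested by limma (version 3.58.1, R 4.3.3) as a linear model with intensity-trended empirical Bayes moderation (3 residual degrees of freedom, Benjamini-Hochberg adjustment over 22518 probe sets), on log2 of the signal plus 19.13. The text names the 12 genes with the largest differences among those lower by the test, the higher ones filled to 12, called members of the lists and the highest members of lists described. Other genes were chosen after their values were seen, as were the X-chromosome and other stretches. In simulated data for this comparison, 200 of 22518 probe sets were changed. The fit recovered 1.2% of changes of 0.5 (log2), 28.8% of 1, 81.6% of 2 and 98.8% of 4. Of its calls in these simulated data, 3.62% were false. This share belongs to the simulated data and is not an error rate for the calls made on the measured arrays. With only 200 probe sets changed, the simulated data held no shifts of whole chromosomes like those described above. Alternatives covered the offset, the filter, normalization, the spread model, clone 2, other probe sets of a gene and each line left out.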

Additional observations from a re-analysis of the deposited data

Results flagged for a closer look

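Among the 4 other lines, 1 line stood apart from the other 3 for 9 of 110 named results, measured as the gap to the nearest line divided by the range of the 4 and set against Dixon's 95% critical value. Chance gives about 5% of such tests. Clone 11 stood apart for Ckap4 (0.859), where it was low, and for Sorl1 (0.841), where it was high. Clone 3 stood apart for B2m (0.877) and for Asb4 (0.861), low in both. The original cells stood apart for Gnas (0.869) and Ywhab (0.894), low in both, and for Adh6b (0.842) and Xist (0.939), high in both. Clone 10 was high for Gata3 (0.849). For Ckap4, Sorl1 and Adh6b all 4 lines remained above clone 9, and for B2m, Asb4, Gnas, Gata3 and Ywhab all 4 remained below it.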

How the results depend on the processing

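No paired analysis was possible because clone 9 has 1 array and the line numbers carry no pairing. All 129 probe sets called kept their sign in every setting that gave them a value. The counts moved, from 16 higher and 113 lower, to 1 and 37 without the filter, 0 and 31 with clone 2 added, 0 and 41 without the trend, 26 higher with robust moderation and 55 lower with the filter at the 75th percentile. Leaving out 1 line gave 6 (without clone 10) to 38 (without clone 11) higher and 75 (without clone 10) to 202 (without clone 11) lower. Of the 12 leading lower genes 4 lost the call with clone 2 added and 3 without the trend, and of the 11 higher genes all 11 lost it in both of those settings and 10 without the filter. Probe sets at least 2-fold higher and above all 4 lines, 168, became 1291 without the filter and 35 at the 75th percentile. Those at least 2-fold lower, 398, became 1220 and 103. Without the filter the median of chromosome 18 was 0.29, of the X chromosome 0.094, and of the first and last X stretches 0.39 and 0.40. With clone 2 added, chromosome 3 was at -0.082 and the X chromosome at 0.090. Runs above all other lines went from 115 to 213 without the filter and 71 at the 75th percentile. Mcm7 (0.00) turned to -0.025 with quantile normalization and -0.011 with median centring, and lay between -0.031 and 0.040 with 1 line left out, below 0 without clone 3 or clone 10. Ctnnb1 (0.01) turned to -0.0024 and -0.0087 with the same normalizations, and lay between -0.034 and 0.051 with 1 line left out. Ifi35 (0.11) turned to -0.14 with clone 2 added and lay between -0.020, without clone 11, and 0.23 with 1 line left out, and Npnt to 0.13 with clone 2 added. The cause of these moves was not tested. Where the signal in clone 9 is low, the offset limits how large a lower difference can be: Fundc2 differed by -6.31 with it and by -7.97 with an offset of 0.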
